A study of Mus musculus with 10 samples.

Results

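Chemokines and their receptors were described in 10 primary mouse pancreatic tumours. They were taken from the table of estimated counts by symbol: every Ccl, Cxcl and Cx3cl1 ligand, every Ccr, Cxcr and Cx3cr1 receptor, and the atypical receptors named Ackr. The symbols matched 66 of 55487 gene identifiers, which carry 60 symbols because several ligands have near-identical copies. Of the 66, 47 had enough counts to be tested, 13 more had some counts and 6 had none in any tumour.

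The tumours came from KPF mice on a C57BL/6J background, a strain in which pancreatic tumours arise in place. In 5 tumours labelled Grem1-deleted, the mice were dosed daily with 100 mg/kg tamoxifen over 5 days at an age of 5 weeks, and in 5 wild-type tumours they were given peanut oil, the vehicle, on the same schedule. Gremlin 1, the product of Grem1, is a secreted antagonist of bone morphogenetic proteins. Animals were used at 6 to 12 weeks, and polyadenylated RNA was sequenced. All tumours share the KPF alleles. The labels give neither these alleles in full nor the Cre line that tamoxifen activates. Genotype and tamoxifen cannot be told apart, since each deleted tumour had both. The samples are described as bulk tumour, whereas the extraction protocol speaks of sorted cells. Fibroblast, epithelial, endothelial and macrophage markers were present in every tumour.

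Chemokines are small secreted proteins that bind G protein-coupled receptors on leukocytes and other cells and steer their migration. Inflammatory chemokines are induced by NF-kappaB and interferon signalling and draw neutrophils, monocytes and effector T cells, whereas homeostatic ones such as CXCL12, CXCL13, CCL19 and CCL21 place cells within tissues and lymphoid structures. Atypical receptors bind chemokines without G protein signalling and remove or transport them. In pancreatic cancer the CCR2 and CXCR2 axes are known for recruiting monocytes and neutrophils, and fibroblast CXCL12 for its effects on T cells.

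Cxcl1, Cxcl2 and Cxcl3, 3 inducible ligands of CXCR2, lie close together on chromosome 5, and their promoters are shown for the stretch that they have in common. Promoters of 44 of the 60 symbols were held, from RefSeq on GRCm38.p6, as windows of 250 bases before to 50 after the annotated start. The 100 bases before the start are printed 5′ to 3′ on the plus strand, from chr5:90891145-90891244 for Cxcl1, chr5:90903799-90903898 for Cxcl2 and chr5:90786001-90786100 for Cxcl3. Capitals mark the longest run shared by all 3 before the start.
Cxcl1: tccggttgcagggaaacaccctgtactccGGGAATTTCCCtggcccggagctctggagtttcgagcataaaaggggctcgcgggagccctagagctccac
Cxcl2: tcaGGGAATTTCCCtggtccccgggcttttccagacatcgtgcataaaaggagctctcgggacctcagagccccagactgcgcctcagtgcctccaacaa
Cxcl3: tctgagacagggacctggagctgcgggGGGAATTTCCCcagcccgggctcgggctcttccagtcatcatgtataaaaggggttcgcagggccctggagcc

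The shared run has 11 bases and begins at position -71 in Cxcl1, -97 in Cxcl2 and -73 in Cxcl3, counted back from the start. It resembles the kappaB sites that NF-kappaB binds, and no other chemokine or receptor promoter held it on either strand. Over all mouse promoters held, 14 of 32851 did (0.0426%). A run of 13 bases after the start was longer, but it lies in the transcribed part. A match describes letters and not a bound site.

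The total estimated count was between 10159891 and 18571519 per tumour. Levels are given as CPM, the usual counts scaled to library size. On the first principal component of all genes tested, which held 39.9% of the variance, labelled-deleted tumour 1 lay at -126 and the remaining tumours at -12.3 to 37.99. Grem1 itself was not lower in the tumours labelled deleted. It had 47.6, 110, 12.6, 6.83 and 23.7 CPM in labelled-deleted tumours 1 to 5, against 15.7, 43.1, 23.0, 3.97 and 9.48 CPM in wild-type tumours 1 to 5. The log2 fold change was 1.08 (SE 0.79, edgeR adjusted p = 0.761), so directions below are those of the labels. No result shows whether the deleted part of the gene is the part counted.

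No chemokine or receptor passed the test between the groups. By edgeR's quasi-likelihood F test with Benjamini-Hochberg adjustment over 16565 genes, 0 of 47 members and 0 of all genes (0%) had an adjusted p below 0.05. The lowest adjusted p was 0.759, DESeq2 called 7 genes and limma-voom 0, and none of the 7 was a member. At an unadjusted p below 0.05 there were 6 members of 47 against 5.93% of all genes. Of the 6, Cxcl10 was higher in the labelled-deleted tumours, where 3.47% of all genes were in that class. The other 5, Cxcl17, Ccr2, Ccl6, Ccr1 and Ccl24, were lower, where 2.46% of all genes were in that class. The median log2 fold change was 0.00 over the 47 members and 0.03 over all genes tested, and 24 of 47 members had a positive value, against 55.1% of all genes. Without labelled-deleted tumour 3, 11 members had a positive value and the median was -0.35. The values over all genes in that fit are not given here, so this shift is not set against that of all genes.

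**Figure D1:**
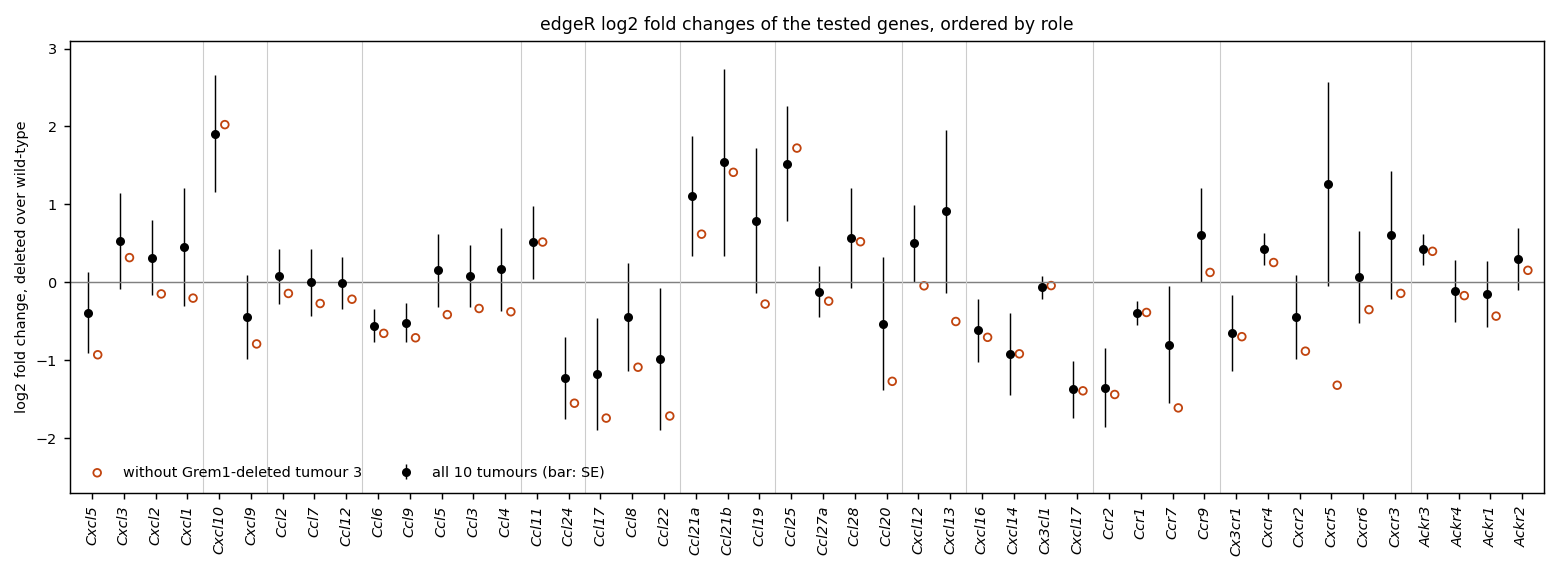
The edgeR log2 fold change, labelled-deleted over wild-type, of 46 tested genes on the y axis, with genes on the x axis in order of role and grey lines between roles. Black points use all 10 tumours with bars of 1 SE, and open circles leave out labelled-deleted tumour 3. Cxcl10 had the highest value, at 1.91, and Cxcl17 the lowest, at -1.37, and the open circles of Cxcr5, Cxcl13 and Ccl19 lie on the other side of 0 from their black points.

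Levels spanned more than 3 orders of magnitude. Per kb of annotated exon, Ccl6 had the highest mean of the 47, at 251 CPM per kb, followed by Ccl21a at 61.3, Ccl17 at 57.0, Cxcl16 at 50.4, Ccl8 at 49.6 and Ccl9 at 47.6. The lowest mean was that of Ccr9, the receptor of gut-homing T cells, at 0.14 CPM per kb. Among conventional receptors, Ccr1 led at 22.2 CPM per kb, and Ccr2 had 14.9, Cxcr4 12.8 and Cx3cr1 8.85 CPM per kb, all of them receptors of monocytes, macrophages or several leukocyte classes. The lymphocyte receptors Cxcr5, Cxcr6 and Cxcr3 averaged 0.79, 0.68 and 0.61 CPM per kb. The ratio of the highest to the lowest tumour was 1.70 for Cx3cl1, 1.85 for Ccr1 and 2.70 for Ccl6, against 61.2 for Cxcl13, 184 for Cxcr5 and 348 for Ccl22.

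**Figure D2:**
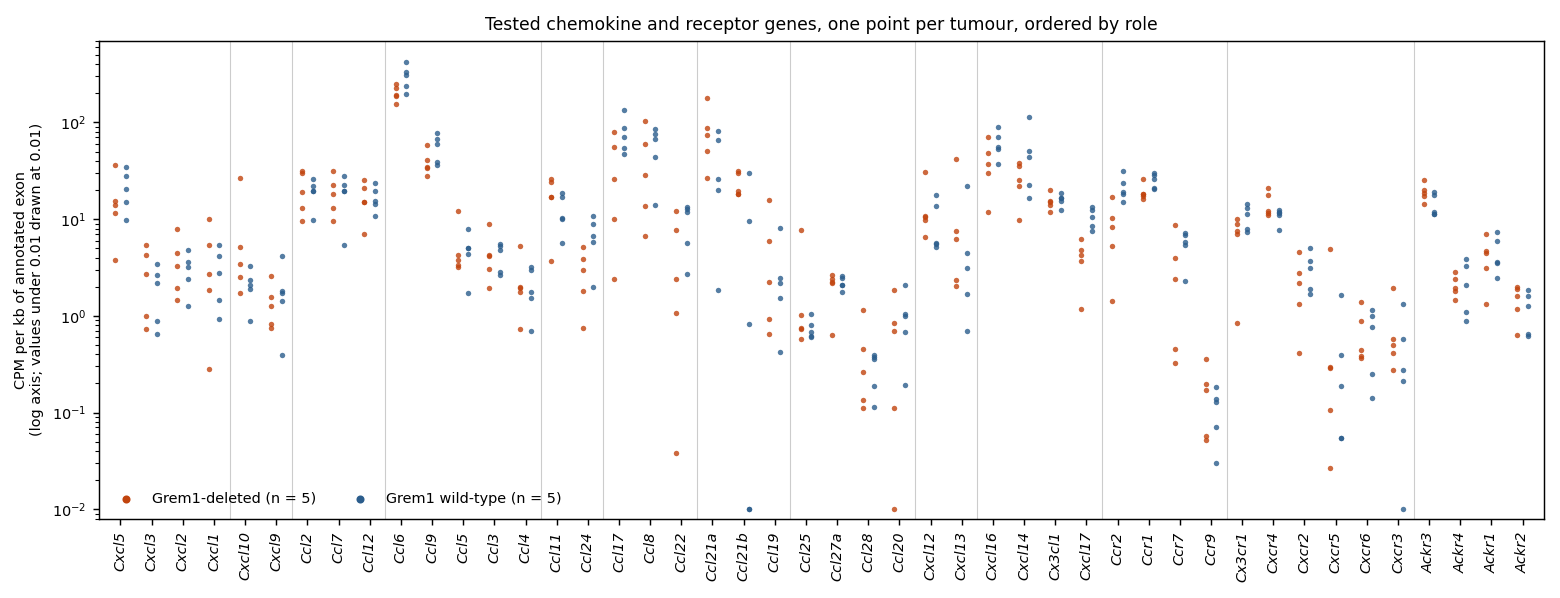
CPM per kb of annotated exon on a log axis for 46 tested genes, with 1 point per tumour, labelled-deleted tumours left of wild-type ones and genes in order of role; values under 0.01 are drawn at 0.01. Ccl6 is highest, with a mean of 251 CPM per kb over all tumours, and the groups overlap for every gene drawn but Cxcl17.

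Cxcl17, a mucosal chemokine made by epithelia that attracts myeloid cells, was the single member whose groups did not overlap. It lies on chromosome 7 at 25400053 to 25412886 (GRCm38) and had 0.89, 2.84, 3.20, 3.63 and 4.73 CPM in labelled-deleted tumours 1 to 5, against 9.36, 8.02, 5.70, 10.3 and 6.45 CPM in wild-type tumours 1 to 5. Every labelled-deleted tumour was below every wild-type tumour, a pattern seen in 0.435% of all genes tested, while 0.93% of all genes had groups that did not overlap in either direction. On the log2 scale the fold change was -1.37 (SE 0.37, edgeR adjusted p = 0.759, exact permutation p = 0.00794, the smallest that 5 against 5 can give). Any 5 against 5 without overlap gives this permutation p, so it adds nothing to the separation described above. Leaving out 1 tumour at a time gave log2 fold changes of -1.58 to -1.14, and DESeq2 on all tumours gave an adjusted p of 0.171. Of the epithelial markers, 6 of 6 had a negative log2 fold change and 0 passed the adjusted threshold. Their summed levels overlapped, at 1720 to 4704 CPM in labelled-deleted tumours, against 4340 to 5299 CPM in wild-type tumours. No epithelial marker was at 0, and their part in the Cxcl17 difference was not tested. As the RNA is from bulk tissue, fewer cells of a type and less RNA per cell cannot be told apart here or for any gene below.

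Of the other ligands without a shared receptor class, Cxcl16, the transmembrane ligand of CXCR6, averaged 120 ± 66.3 CPM in labelled-deleted tumours and 184 ± 59.4 CPM in wild-type tumours (SD, n = 5 each). Its log2 fold change was -0.62 (SE 0.40), -0.39 without labelled-deleted tumour 1 and -0.93 without labelled-deleted tumour 5. Cxcl14, an epithelial and stromal chemokine, averaged 47.9 ± 20.9 CPM in labelled-deleted tumours and 90.7 ± 71.1 CPM in wild-type tumours (SD, n = 5 each). Wild-type tumour 1 held 209 CPM of Cxcl14, and leaving it out gave -0.35 in place of -0.92 for the log2 fold change. Cx3cl1, the membrane-bound fractalkine, was the steadiest member and had a log2 fold change of -0.06 (SE 0.15).

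Ccr2, the receptor that draws inflammatory monocytes out of the bone marrow, had the next lowest log2 fold change. It lies on chromosome 9 at 124101950 to 124113557 (GRCm38). Ccr2 had 9.61, 35.6, 68.8, 56.4 and 113 CPM in labelled-deleted tumours 1 to 5, against 124, 102, 130, 158 and 212 CPM in wild-type tumours 1 to 5. Only labelled-deleted tumour 5 reached into the wild-type range, above wild-type tumour 2. The log2 fold change was -1.35 (SE 0.50, edgeR adjusted p = 0.759, exact permutation p = 0.0159), and -1.08 without labelled-deleted tumour 1. The 3 mouse ligands of CCR2 did not share this difference in their values: Ccl2, Ccl7 and Ccl12 had log2 fold changes of 0.08 (SE 0.36), 0.00 (SE 0.43) and -0.01 (SE 0.33). Ccl2 averaged 23.4 ± 11.2 CPM in labelled-deleted tumours and 22.1 ± 6.81 CPM in wild-type tumours (SD, n = 5 each), and Ccl7 averaged 15.2 ± 6.88 CPM in labelled-deleted tumours and 15.2 ± 6.64 CPM in wild-type tumours. The signs of Ccl2 and Ccl7 depended on single tumours and on the tool. Whether the Ccr2 difference exceeds that of its ligands was not tested.

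Of the macrophage markers, 7 of 7 had a negative log2 fold change, between -0.65 and -0.004, and 0 passed the adjusted threshold. Their summed levels overlapped, at 1385 to 4071 CPM in labelled-deleted tumours against 2877 to 5054 CPM in wild-type tumours, and none was at 0. In the monocyte list 3 of 4 were positive, with sums of 5349 to 9911 CPM in labelled-deleted tumours against 6746 to 9529 CPM in wild-type tumours. That sum is nearly all Fn1, a matrix gene that fibroblasts also express. Ly6c2, the marker of inflammatory monocytes, had 15.1, 2.13, 14.5, 2.19 and 4.47 CPM in labelled-deleted tumours, against 2.91, 0.46, 7.76, 2.38 and 2.32 CPM in wild-type tumours, so the groups overlapped. The part of either cell class in the Ccr2 values was not tested.

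The ligands of CCR1 and related inflammatory receptors divided between the rodent chemokines Ccl6 and Ccl9, which myeloid cells express at high level, and Ccl3, Ccl4 and Ccl5, the inflammatory ligands made by activated macrophages and T cells. Ccl6, on chromosome 11 at 83587882 to 83593087 (GRCm38), had 339.9, 343, 450.4, 280.2 and 410.3 CPM in labelled-deleted tumours 1 to 5, against 600.3, 429, 349, 756 and 551 CPM in wild-type tumours 1 to 5. The groups overlapped because wild-type tumours 2 and 3 lay among the labelled-deleted ones. This gave a log2 fold change of -0.56 (SE 0.21, edgeR adjusted p = 0.759, exact permutation p = 0.0556). Ccl9 averaged 119 ± 34.9 CPM in labelled-deleted tumours and 171 ± 53.8 CPM in wild-type tumours (SD, n = 5 each), a log2 fold change of -0.52 (SE 0.25). Ccl3, Ccl4 and Ccl5 had values of 0.08, 0.16 and 0.15 with SEs of 0.40, 0.53 and 0.47, and each was highest in labelled-deleted tumour 3, without which all 3 were negative, from -0.42 to -0.34.

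Ccr1, the receptor of Ccl6 and Ccl9 on neutrophils, monocytes and macrophages, had 48.9, 51.5, 51.3, 46.2 and 73.0 CPM in labelled-deleted tumours, against 85.5, 58.2, 59.5, 80.3 and 73.0 CPM in wild-type tumours. Labelled-deleted tumours 1 to 4 were below all 5 wild-type tumours and tumour 5 was among them. Ccr1 had a log2 fold change of -0.40 (SE 0.15, edgeR adjusted p = 0.759, exact permutation p = 0.0476). Cx3cr1, the fractalkine receptor of patrolling monocytes and tissue macrophages, had 3.83 CPM in labelled-deleted tumour 1, and the other 9 tumours held 31.9 to 65.2 CPM. Its log2 fold change was -0.65 (SE 0.49), and -0.37 without that tumour.

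**Figure D3:**
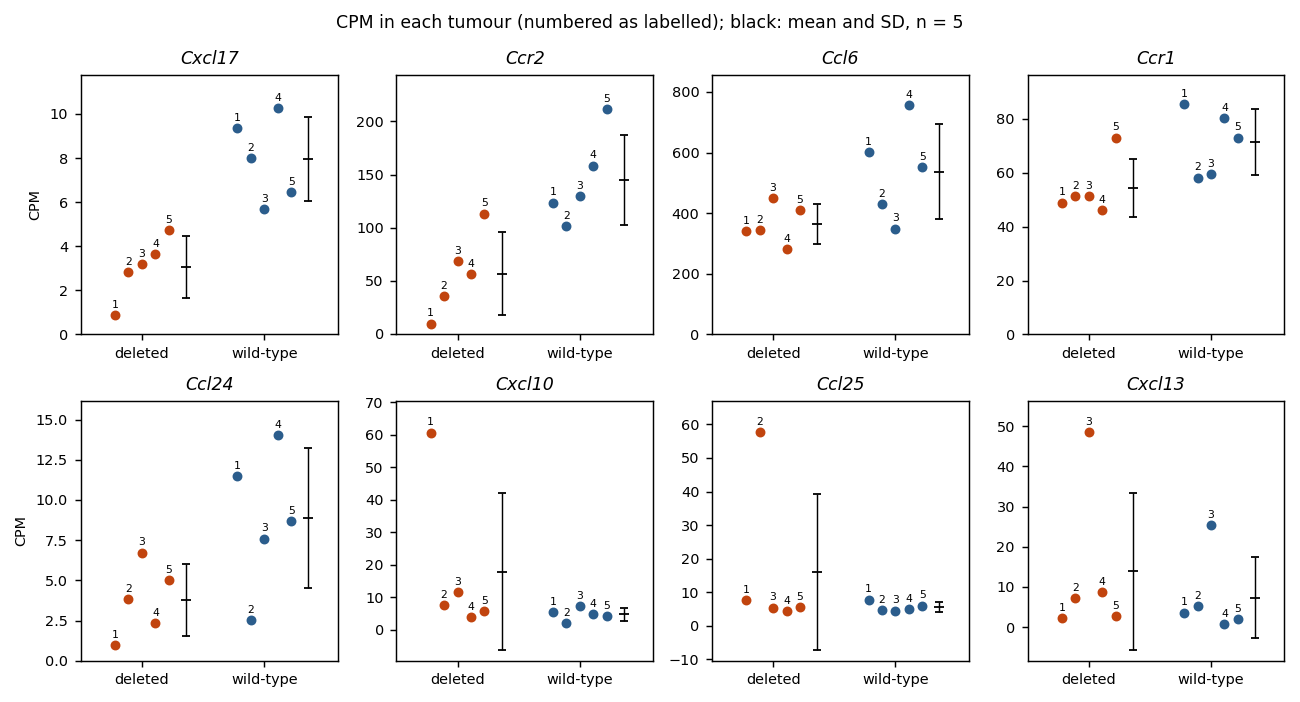
CPM in each tumour for 8 genes, with points numbered by tumour, labelled-deleted tumours left of wild-type ones, and black bars for the mean and SD (n = 5 each); y axes differ between panels, and where they reach below 0 that is the lower SD bar. Cxcl17 separates the groups, at 0.89 to 4.73 against 5.70 to 10.3 CPM, whereas Cxcl10, Ccl25 and Cxcl13 each have 1 labelled-deleted tumour far above the others, at 60.7, 57.7 and 48.5 CPM.

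The neutrophil-attracting CXCR2 ligands, 3 of which share the promoter run, did not divide the groups. Cxcl1 had 0.53, 5.11, 18.6, 3.47 and 10.2 CPM in labelled-deleted tumours 1 to 5, against 10.2, 1.73, 2.73, 5.25 and 7.76 CPM in wild-type tumours 1 to 5. The extremes of both ends were labelled-deleted, tumour 3 being highest and tumour 1 lowest. Cxcl2 averaged 7.90 ± 5.34 CPM in labelled-deleted tumours and 6.34 ± 2.75 CPM in wild-type tumours, and Cxcl3 averaged 9.83 ± 7.07 CPM in labelled-deleted tumours and 6.83 ± 4.08 CPM in wild-type tumours (SD, n = 5 each). Cxcl5, the most abundant of the class and an epithelial product, averaged 30.3 ± 22.6 CPM in labelled-deleted tumours and 39.9 ± 18.1 CPM in wild-type tumours, a log2 fold change of -0.39 (SE 0.52) that was -0.93 without labelled-deleted tumour 3. The receptor gene Cxcr2, a defining gene of neutrophils, averaged 6.87 ± 4.81 CPM in labelled-deleted tumours and 9.37 ± 4.15 CPM in wild-type tumours (SD, n = 5 each).

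Cxcl10, an interferon-induced ligand of CXCR3 on effector T cells and NK cells, had 60.7, 7.66, 11.5, 3.84 and 5.72 CPM in labelled-deleted tumours 1 to 5, against 5.35, 2.00, 7.35, 4.70 and 4.23 CPM in wild-type tumours 1 to 5. Labelled-deleted tumour 1 was far above the other 9, which overlapped between groups. Its log2 fold change was 1.91 (SE 0.75, edgeR adjusted p = 0.759, exact permutation p = 0.119), and 0.59 without that tumour. The same tumour held 1913 CPM of 8 interferon-response genes summed, against 59.1 to 175 CPM in the other labelled-deleted tumours and 28.6 to 135 CPM in wild-type tumours. Cxcl9, induced mainly by interferon gamma, was not high there: it had 2.49 CPM in labelled-deleted tumour 1 and was highest in wild-type tumour 3, at 12.4 CPM. Cxcl9 had a log2 fold change of -0.44 (SE 0.54). An exon of Cxcl10 overlaps Art3 on the opposite strand, so its reads could include those of Art3 if strand was ignored in counting.

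Ccl24, an eosinophil attractant acting on CCR3 that alternatively activated macrophages make, had 0.98, 3.83, 6.73, 2.35 and 5.00 CPM in labelled-deleted tumours 1 to 5, against 11.5, 2.55, 7.60, 14.0 and 8.67 CPM in wild-type tumours 1 to 5. Wild-type tumour 2 lay within the labelled-deleted range and the other 4 wild-type tumours were above it. Ccl24 had a log2 fold change of -1.23 (SE 0.53, edgeR adjusted p = 0.759, exact permutation p = 0.0714). Ccl11, the stromal eotaxin for the same receptor, had a value of 0.51 (SE 0.47) and was lowest in labelled-deleted tumour 1, at 4.00 CPM, without which it was 0.77. Ccr3, the receptor itself, was too low to test and had at most 1.14 CPM in any tumour.

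The CCR4 ligands Ccl17 and Ccl22, made by mature dendritic cells and attracting regulatory and helper T cells, and the mouse CCR8 ligand Ccl8 had negative values for all 3. Ccl17 had 1.25, 5.18, 41.2, 13.3 and 28.9 CPM in labelled-deleted tumours 1 to 5, against 69.8, 24.4, 44.7, 36.7 and 27.7 CPM in wild-type tumours 1 to 5. Labelled-deleted tumours 1, 2 and 4 were below all wild-type tumours, and tumours 3 and 5 were among them. Its log2 fold change was -1.18 (SE 0.72, edgeR adjusted p = 0.759), -0.88 without labelled-deleted tumour 1 and -1.74 without labelled-deleted tumour 3. Ccl22 had 0.09 CPM in labelled-deleted tumour 1, from a single count, and 2.48 to 28.2 CPM in the other labelled-deleted tumours, against 6.29 to 31.0 CPM in wild-type tumours. The Ccl22 value was -0.98 (SE 0.91), -0.67 without labelled-deleted tumour 1 and -1.72 without labelled-deleted tumour 3. For Ccl8, at -0.44 (SE 0.69), leaving out tumour 1 gave -0.17 and leaving out tumour 3 gave -1.09. The T-cell receptors for these ligands, Ccr4 and Ccr8, were too low to test, at no more than 1.23 and 0.41 CPM.

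The lymphoid group of ligands was dominated by labelled-deleted tumour 3. Cxcl13, the B-cell attractant of follicles, had 2.31, 7.24, 48.5, 8.70 and 2.70 CPM in labelled-deleted tumours 1 to 5, against 3.62, 5.19, 25.4, 0.79 and 1.92 CPM in wild-type tumours 1 to 5. Its receptor gene Cxcr5 had 0.09, 0.35, 16.3, 0.96 and 0.99 CPM in labelled-deleted tumours, against 0.63, 0.18, 5.45, 0.18 and 1.31 CPM in wild-type tumours. Tumour 3 of each group was highest for both genes, and otherwise the groups overlapped. The log2 fold changes were 0.91 (SE 1.05) for Cxcl13 and 1.26 (SE 1.31) for Cxcr5, and -0.50 and -1.32 without labelled-deleted tumour 3. Summed B-cell markers reached 251 CPM in that tumour, against 1.601 to 22.6 CPM in the other labelled-deleted tumours and 1.47 to 89.8 CPM in wild-type tumours, of which tumour 3 held the 89.8. Summed T-cell markers were 70.4 CPM there, against 2.31 to 24.8 CPM in the other labelled-deleted tumours and 3.46 to 26.0 CPM in wild-type tumours. All 5 B-cell and all 6 T-cell markers had a positive log2 fold change, and their part in the lymphoid chemokines was not tested. Ccr6, which B cells and some helper T cells carry, was untested and had 5.58 CPM in labelled-deleted tumour 3 and at most 1.24 CPM elsewhere.

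Ccl19 and the Ccl21 genes encode the ligands of CCR7, which brings dendritic cells and naive T cells to lymphatics and lymph nodes. Ccl21a had 23.1, 43.8, 155, 65.3 and 76.8 CPM in labelled-deleted tumours 1 to 5, against 56.7, 22.5, 70.8, 17.45 and 1.61 CPM in wild-type tumours 1 to 5. The groups overlapped, with labelled-deleted tumour 3 highest and wild-type tumour 5 lowest. The log2 fold change was 1.11 (SE 0.77, edgeR adjusted p = 0.76), and 0.62 without labelled-deleted tumour 3. Mouse Ccl21 exists in near-identical copies, which an estimated count can divide in ways that differ between tumours. Aligned transcripts were 99.3% identical between Ccl21d and Ccl21a over 870 bases, and 99.5% between Ccl21a and a copy of Ccl21b on chromosome 4 over 402 bases. That copy was counted at 7.85 CPM in labelled-deleted tumour 4 and at 12.6 and 4.64 CPM in wild-type tumours 3 and 4, and at 0 in the other 7. The tested Ccl21b copy, on a separate scaffold, had 15.8, 15.7, 27.3, 16.97 and 26.2 CPM in labelled-deleted tumours. In wild-type tumours it had 26.1, 8.29, 0, 0 and 0.71 CPM. These copy-level values are therefore uncertain.

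With the 7 Ccl21 identifiers summed, an alternative chosen after seeing the data, the level was 38.97, 59.5, 182, 90.1 and 103 CPM in labelled-deleted tumours 1 to 5, against 82.8, 30.8, 83.3, 22.1 and 2.32 CPM in wild-type tumours 1 to 5. Labelled-deleted tumours 3 to 5 were above all wild-type tumours and tumours 1 and 2 were within their range. The difference of mean log2 CPM was 1.68, with an exact two-sided permutation p of 0.103. Ccl19 averaged 4.44 ± 5.53 CPM in labelled-deleted tumours and 2.54 ± 2.59 CPM in wild-type tumours (SD, n = 5 each), with 13.8 CPM in labelled-deleted tumour 3. The receptor gene Ccr7 had 0.89, 0.64, 17.2, 4.80 and 7.89 CPM in labelled-deleted tumours, against 13.6, 4.55, 11.6, 10.8 and 14.1 CPM in wild-type tumours. It was lowest in labelled-deleted tumours 1 and 2, and its log2 fold change of -0.80 (SE 0.75) was opposite in sign to those of its ligands and was -1.61 without labelled-deleted tumour 3. Whether receptor and ligands differed from one another was not tested.

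The mucosal and skin ligands were low apart from 1 tumour. Ccl25, which guides CCR9-bearing T cells to the small intestine, had 7.65, 57.7, 5.42, 4.27 and 5.52 CPM in labelled-deleted tumours 1 to 5, against 7.78, 4.65, 4.54, 5.01 and 6.05 CPM in wild-type tumours 1 to 5. Labelled-deleted tumour 2 alone was high, and the other 9 lay between 4.27 and 7.78 CPM. Its value of 1.52 (SE 0.74) on the log2 scale was 0.03 without it. That tumour also held 2687 CPM of 6 intestinal epithelium markers summed, against 37.3 to 95.5 CPM in the other labelled-deleted tumours and 81.8 to 124 CPM in wild-type tumours, with 897 CPM of Apoa4, 293 CPM of Sis and 238 CPM of Fabp2. Each of these 3 was at most 4.72 CPM in the other 9 tumours. Their part in the Ccl25 value was not tested. Ccl28, a mucosal ligand of CCR10, was also highest there, at 5.54 CPM. Ccl27a, the skin ligand of the same receptor, and Ccl20, the CCR6 ligand, had log2 fold changes of -0.12 (SE 0.32) and -0.53 (SE 0.85). Exons of Ccl25 and Ccl27a overlap Elavl1 and Il11ra1 on the opposite strands.

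Cxcl12, the stromal ligand that fibroblasts and endothelium make, averaged 94.7 CPM over all tumours, or 11.6 CPM per kb of annotated exon. It had 53.8, 87.8, 249, 79.4 and 85.5 CPM in labelled-deleted tumours 1 to 5. Wild-type tumours 1 to 5 had 113, 45.8, 146, 44.9 and 41.8 CPM. Labelled-deleted tumour 3 was highest and the groups overlapped. For Cxcl12 the log2 fold change was 0.50 (SE 0.50) and -0.05 without labelled-deleted tumour 3. Its signalling receptor gene Cxcr4, expressed by many leukocytes, had 31.8, 22, 38.09, 20.1 and 20.8 CPM in labelled-deleted tumours, against 22.6, 19.8, 14.1, 21.2 and 20.8 CPM in wild-type tumours, a value of 0.43 (SE 0.21, edgeR adjusted p = 0.759). Ackr3, the scavenger of CXCL12, averaged 64.0 ± 13.6 CPM in labelled-deleted tumours and 47.9 ± 13.2 CPM in wild-type tumours (SD, n = 5 each), a value of 0.42 (SE 0.20, edgeR adjusted p = 0.759). Both kept a positive sign in all 22 alternative settings, without passing the threshold in any. Those settings include a threshold of 0.1 on the main fit, where no sign can change.

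The other atypical receptors showed little difference beside their errors. Ackr4, which removes CCL19, CCL21 and CCL25, had a log2 fold change of -0.11 (SE 0.40), and Ackr1, the chemokine carrier of venules and red cells, -0.15 (SE 0.42). Ackr2, the scavenger of inflammatory CC chemokines, had 0.29 (SE 0.40). Exons of Ackr4 overlap Acad11 on the opposite strand, and those of Ackr1 overlap Cadm3 on the same strand. Exons of Cxcl16, Cxcr5, Cx3cr1 and Ccr9 likewise overlap another gene, and their counts could hold its reads.

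The members were unevenly spread between tumours. Labelled-deleted tumour 3 was highest for 23 of the 47 tested members, against 12.6% of all genes tested, and lowest for 0, against 12.7% of all genes. Labelled-deleted tumour 1 was lowest for 20 members, against 29.5% of all genes, and highest for Cxcl10 alone, against 27.9% of all genes. Wild-type tumour 2 was lowest for 10 members, against 7.64% of all genes. Summed over all 66 identifiers, the members amounted to 1015, 1350, 2198, 1254 and 1749 CPM in labelled-deleted tumours 1 to 5, against 2379, 1339, 1741, 2139 and 1953 CPM in wild-type tumours 1 to 5. Tumours 1 and 3 were the ends of the labelled-deleted range, and wild-type tumour 1 had the highest sum of all tumours.

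**Figure D4:**
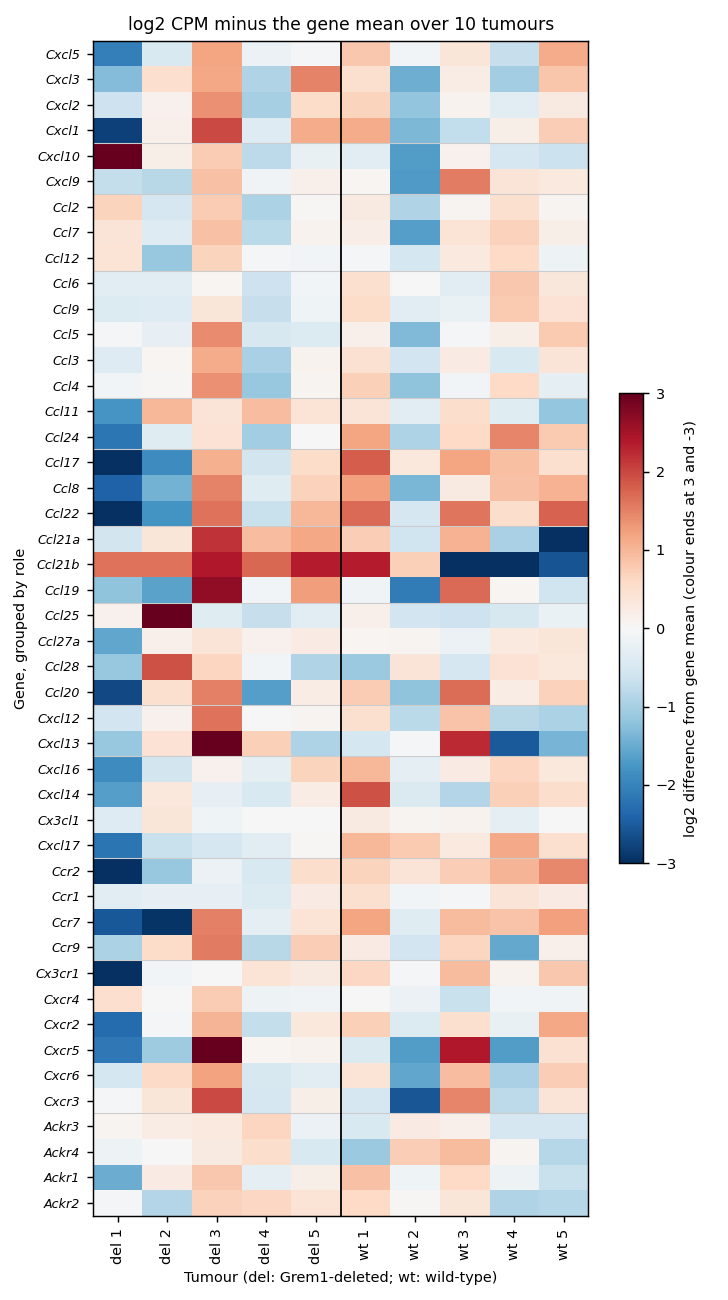
Log2 CPM of 46 tested genes (y axis, grouped by role) in each tumour (x axis, labelled-deleted left of the black line and wild-type right of it), minus the gene's mean over all 10 tumours; colours end at 3 and -3. Column 3 of the labelled-deleted tumours is red for most genes, being the highest tumour for 23 of 46, and column 1 is blue for many, being the lowest for 19.

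How members followed marker lists across the 10 tumours was tested for 10 pairs of a member and a list that does not contain it. Permutation tests used 100000 resamples, which can give no p below 1e-05, with Benjamini-Hochberg adjustment over the 10. Members and lists were chosen with earlier results of these data known, so the p-values are not independent of those results. Of the 10 pairs, 9 had an adjusted p below 0.05 for Pearson's r and 8 for Spearman's rho. Cxcr5 followed the B-cell list (r = 0.97, permutation p = 1e-05, adjusted 1e-04, rho = 0.95, permutation p = 0.00011, adjusted 0.0011), and r was 0.97 without the 2 tumours farthest from the median of the list. Cxcl10 followed the interferon list (r = 0.98, permutation p = 7e-05, adjusted 0.00035, rho = 0.90, permutation p = 0.00095, adjusted 0.00475), with r = 0.81 without the 2 farthest and 0.91 without labelled-deleted tumour 1. Cxcr3 followed the T-cell list (r = 0.79, permutation p = 0.0057, adjusted 0.00997, rho = 0.75, permutation p = 0.0177, adjusted 0.026), with r = 0.84 without the 2 farthest. Cxcr3 was low, at 0 to 3.37 CPM. Each member was paired with a single list, so whether it followed another list as closely was not tested. The B-cell and T-cell lists were both highest in labelled-deleted tumour 3 and next in wild-type tumour 3.

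Ccr2 ran against the monocyte list (r = -0.71, permutation p = 0.0226, adjusted 0.0323, rho = -0.78, permutation p = 0.0102, adjusted 0.0204), with r = -0.73 without the 2 farthest. Its measures had unlike group means, which the relation over all 10 tumours includes. The mean log2 CPM of the list was 7.20 to 8.04 in labelled-deleted tumours and 6.36 to 7.23 in wild-type tumours, and Ccr2 averaged 56.8 CPM in labelled-deleted tumours and 145 CPM in wild-type tumours. With group means removed from both, r was -0.39 (permutation p within groups 0.334, adjusted 0.334), not past the threshold. The list mean weighs its 4 markers alike on the log2 scale. Chil3 ran from 24.4 to 730 CPM, Ly6c2 from 0.46 to 15.1 and Plac8 from 72.2 to 377. Fn1 varied less, from 5148 to 9549 CPM. Chil3 and Plac8 were both highest in labelled-deleted tumour 2. Which markers carried the relation with Ccr2 was not tested.

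Ccr7 with the dendritic-cell list had r = 0.83 (permutation p = 0.00185, adjusted 0.00617, rho = 0.79, permutation p = 0.00914, adjusted 0.0204) and r = 0.78 without the 2 farthest. The relations of Cxcr5, Cxcl10, Cxcr3, Ccr2 and Ccr7 were past the threshold without the 2 farthest tumours, and the next 4 were not, in fits of 8 tumours. Cxcr2 with the neutrophil list had r = 0.78 (permutation p = 0.00378, adjusted 0.00945, rho = 0.75, permutation p = 0.0182, adjusted 0.026), and 0.65 without them. Ackr1 with the blood endothelial list had r = 0.81 (permutation p = 0.00598, adjusted 0.00997, rho = 0.71, permutation p = 0.027, adjusted 0.0338), and 0.72 without them. For Ccl21a with the lymphatic endothelial list r was 0.70 (permutation p = 0.0334, adjusted 0.0371, rho = 0.79, permutation p = 0.0088, adjusted 0.0204), and 0.74 without them, with an adjusted p of 0.0607.

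Cx3cr1 with the macrophage list had r = 0.68 (permutation p = 0.0295, adjusted 0.0369, rho = 0.46, permutation p = 0.192, adjusted 0.213), and 0.43 without the 2 farthest, so this relation rests on those tumours. Cxcl12 with the fibroblast list was past the threshold by neither measure (r = 0.57, permutation p = 0.0877, rho = 0.36, permutation p = 0.314), and r was 0.26 without the 2 farthest. With labelled-deleted tumour 1 alone left out, 4 relations were past the threshold, those of Cxcr5, Cxcl10, Cxcr3 and Ccr2. With labelled-deleted tumour 3 left out, 8 were. With the group means removed from both measures and tumours permuted within groups, a test added after seeing the data, 7 of the 10 were past the threshold. They were those of Cxcr5, Cxcl10, Cxcr3, Ccr7, Cxcr2, Ackr1 and Ccl21a, with r between 0.67 for Ccl21a and 0.98 for Cxcl10. Those of Ccr2 and Cx3cr1, which had r = 0.57 (permutation p = 0.147, adjusted 0.163), were not.

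**Figure D5:**
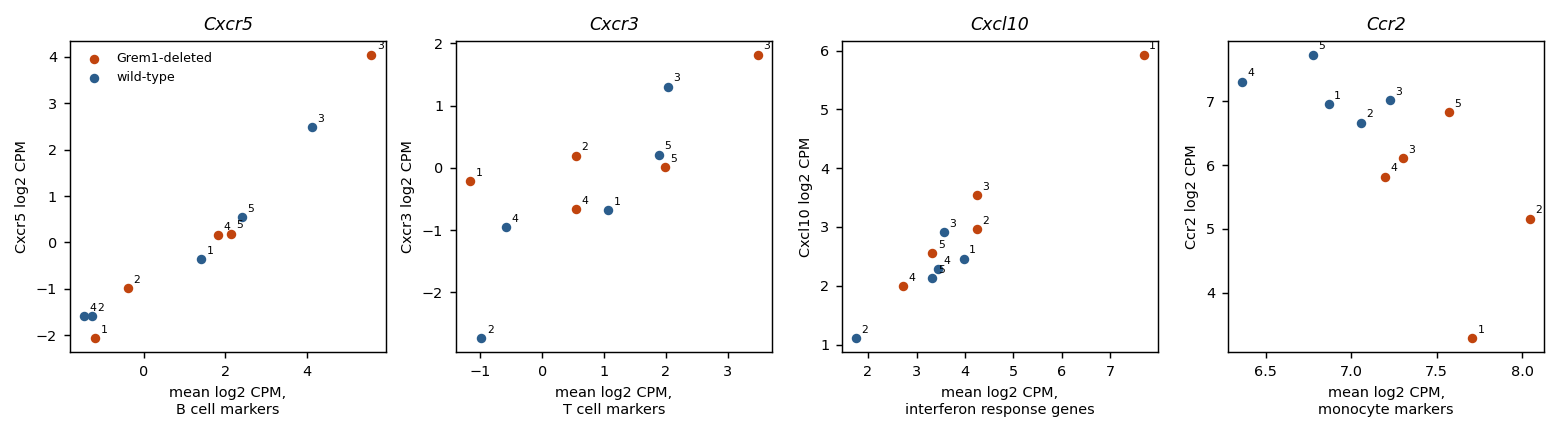
Log2 CPM of Cxcr5, Cxcr3, Cxcl10 and Ccr2 (y axes) against the mean log2 CPM of the B-cell, T-cell, interferon-response and monocyte lists (x axes), with 1 numbered point per tumour. Cxcr5 rises along its list with r = 0.97, Cxcl10 has labelled-deleted tumour 1 far from the rest, and Ccr2 declines along the monocyte list with r = -0.71 over all 10 tumours and -0.39 with group means removed.

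Of 53 other genes of the chemokine pathway, taken as 4 lists, 49 were tested and edgeR placed 0 past the adjusted threshold. Of 24 signalling and trafficking genes, 7 had positive and 17 negative log2 fold changes, with a median of -0.21, against 0.03 over all genes. Those with the smallest p were Rgs18, a GTPase activator that shortens G protein signals, at -1.31 (SE 0.41, edgeR adjusted p = 0.759), the beta-arrestin gene Arrb2 at -0.41 (SE 0.19), the Rac activator Prex1 at -0.62 (SE 0.31), and Gnai2, the inhibitory G protein subunit that couples chemokine receptors, at -0.15 (SE 0.09). Of these 4, Rgs18 alone had an unadjusted p below 0.05, at 0.00918 by edgeR.

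Among 11 tested inducers of chemokine genes, 5 were positive and 6 negative, with Tnf at -0.88 (SE 0.52), Il1a at -0.54 (SE 0.40), both inflammatory cytokines, and Nfkbia, the NF-kappaB inhibitor and target, at 0.16 (SE 0.13). Among 9 modifiers, 6 were positive and 3 negative. The heparan sulfate carriers Sdc4 and Sdc1, to which chemokines bind, had 0.26 (SE 0.13) and -0.28 (SE 0.17). Tpst2, which sulfates tyrosines of receptors, had 0.35 (SE 0.24), and Ndst1, a heparan sulfate sulfotransferase, had 0.24 (SE 0.17). Of 5 tested chemokine-system genes with other names, 1 was positive and 4 negative: the platelet chemokine Pf4 was at 0.14 (SE 0.16) and Ppbp, another, at -0.37 (SE 0.60), while the chemerin receptor gene Cmklr1 was at -0.26 (SE 0.27) and Pitpnm3, reported as a receptor for human CCL18, at -0.45 (SE 0.33).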

How the data were processed

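Polyadenylated RNA of 10 tumours was sequenced, with 5 per group as their titles give it. The name of 1 count column, labelled-deleted tumour 1, lacks a number that its title has, and was matched because that tumour's own deposited log2 file carries the same short name. Nothing in the labels names litters, batches or dates, and where tumours shared an animal is not stated, so p-values measure the spread between these samples. The authors deposited estimated counts per gene, of which 7.96% were not whole, and per tumour a file of normalized log2 values whose transformation is not named. The submitters' processing notes name RSEM 1.3.3, HISAT2 2.2.1, DESeq2 1.32.0, bcl2fastq 2.0 and FastQC 0.11.9, and build mm10. Strand setting and annotation release: not given in the sources used here. An estimated count divides reads that fit several genes, which bears on the Ccl21, Ccl19 and Ccl27 copies.

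Counts were rounded, filtered with filterByExpr (minimum count 10), which kept 16565 genes, scaled by TMM and compared with edgeR 4.0.16 (quasi-likelihood F test, robust, Benjamini-Hochberg over all genes, threshold 0.05). A positive log2 fold change means higher in tumours labelled deleted. SEs come from the F statistic. Log2 CPM used a prior count of 2. Exact permutation tests were two-sided over all assignments of 5 against 5. Versions were matplotlib 3.10.9, Python 3.11.15, R 4.3.3, DESeq2 1.42.0 and limma 3.58.1. The biological coefficient of variation was 0.355, and at these depths 3 counts correspond to 0.16 to 0.30 CPM, so for most members the spread between tumours, not counting, limited precision. No libraries agreed within sampling noise (lowest chi-square per degree of freedom 12.1). Exon lengths and overlaps came from GENCODE M21 on GRCm38. The edgeR and DESeq2 steps were tested on simulated counts.

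Named members were those averaging at least 10 CPM, the 6 with the smallest p in each direction and those whose groups did not overlap; other members appear as part of their role class, and 4 genes per pathway list by smallest p. Members and lists were chosen with earlier results of these data known. Of the 66 identifiers, the 19 not tested were Ccr3, Ccr4, Ccr6, Ccr8, Ccr10, Cxcr1, Ccl1, Ccl26, Ccl27b, Cxcl11, Cxcl15, Ccl21c, Ccl21d and extra copies of Ccl19, Ccl21a, Ccl21b and Ccl27a. Alternatives were other scalings, filters and tools, the deposited log2 values, a replicate-number block, a tumour-ID block, leaving out tumours, and an adjusted p threshold of 0.1 on the main fit. Values of 1 tested member and 1 pathway gene, which remain in the counts over all members and lists, are not reported here.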

Additional observations from a re-analysis of the deposited data

Results flagged for a closer look

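Gaps between tumours were measured on log2 CPM. Among 54 groups of 5 tumours, from 27 named members, 6 had a tumour whose gap to its nearest neighbour, divided by the group's whole range, was above 0.71. The ratios in brackets below are of log2 CPM and not of the CPM printed beside them. Chance alone gives about 1 in 20 such groups. Ccl25 had 57.7 CPM in labelled-deleted tumour 2, the next being 7.65 CPM (0.779). Cx3cr1 had 3.83 CPM in labelled-deleted tumour 1, the next being 31.9 CPM (0.859). Ccl11 had 4.00 CPM in the same tumour, the next being 18.1 CPM (0.777). Ccr1 had 73.0 CPM in labelled-deleted tumour 5, the next being 51.5 CPM (0.766). Ccl7 had 4.28 CPM in wild-type tumour 2, the next being 15.5 CPM (0.782), and Cxcr4 had 14.1 CPM in wild-type tumour 3, the next being 19.8 CPM (0.713).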

How the results depend on the processing

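Members past the threshold numbered 0 under every alternative run, and 18 of 27 named members kept their sign in all 22. DESeq2 gave no adjusted p for Ccl25 and Cxcr5, which were counted as not past the threshold there. The 22 include a threshold of 0.1 on the main fit, where no sign can change. Genes past it numbered 7 with DESeq2 and 0 elsewhere, while edgeR with no change had 983 at an unadjusted p below 0.05. Leaving out 1 tumour at a time gave 0 genes and 0 members, 11 to 27 members with a positive value, lowest without labelled-deleted tumour 3, and medians of -0.35 to 0.16. In those fits log2 fold changes ran from -0.14 to 0.25 for Ccl2, -0.27 to 0.18 for Ccl7, -0.174 to 0.018 for Cx3cl1, -0.046 to 0.854 for Cxcl12, -0.50 to 2.27 for Cxcl13 and -0.31 to 0.18 for Ackr4. Other reversals were Ccl7 at -0.016 with upper-quartile scaling, -0.009 with no filter, -0.053 with limma-voom and -0.34 with quality weights; Ccl2 at -0.11 and -0.38 with those last 2; and Ackr4 at 0.088 and 0.164 with them and 0.033 on the deposited log2 values. With labelled-deleted tumours 1 and 2 left out, Ccl8 was at 0.14, Cxcl5 at 0.038 and Ccl25 at -0.15. The cause was not tested. Relations past the threshold numbered 5 without the 2 farthest tumours and 4 without labelled-deleted tumour 1, fits with fewer samples, and 7 with group means removed, where Ccr2 and Cx3cr1 were not among them.

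Replicate numbers did not pair the tumours: same-number correlations were -0.02 to 0.39, and 2 of 5 numbers correlated best with their own. The titles also hold ID numbers, partly shared between groups, whose meaning is not stated. Labelled-deleted tumours 2, 3 and 5 correlated best with wild-type tumours 1, 3 and 5. These pairs carry the same ID numbers, 36, 38 and 40. Labelled-deleted tumours 1 and 4 share no ID number with a wild-type tumour. The main test did not use the ID numbers. The replicate block gave 0 genes past the threshold, 781 at an unadjusted p below 0.05, 24 members with a positive value and a median of 0.02, with Ackr4 at 0.07. A block by tumour ID number, over 8 tumours, gave 0, 30 members and a median of 0.18, with Ackr4 at 0.038 and Ccl8 at 0.058. These member counts and medians, and those of the fits without single tumours, are given without the values over all genes. Of the 13 untested members with estimated counts above 0, Ccl21d totalled 0.22 counts, and Ccl21c and a scaffold copy of Ccl21b 0.02 each. The chromosome 4 copy of Ccl21b totalled 375 counts, more than the tested Ccr9 at 185, but was at 0 in most tumours. Depth limits the others.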

Other observations

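The 13 untested members with estimated counts above 0 were spread unevenly over tumours. Ccr6 summed to 128 counts over all 10 tumours, Ccr10, the receptor for Ccl27 and Ccl28, to 71, Ccr3 to 52 and Ccr4 to 48. Cxcl11, a CXCR3 ligand gene annotated as a polymorphic pseudogene, summed to 32, and its counts need not stand for a working ligand. Ccr8 summed to 21, the CCR8 ligand Ccl1 to 19, the lung-enriched Cxcl15 to 13 and the neutrophil receptor gene Cxcr1 to 7. Labelled-deleted tumour 1 had 0 counts of Ccr6, Ccr3, Ccr4, Ccr8 and Ccl1, which at its depth allows up to 0.27 CPM of each, counting error only. Labelled-deleted tumour 3 had the highest level of Ccr6, Ccr10, Ccr4 and Ccr8 among the 10, at 5.58, 1.31, 1.23 and 0.41 CPM. Ccr3 was highest in labelled-deleted tumour 2, at 1.14 CPM. No groups were compared for these genes.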
